A study of Rattus norvegicus with 65 samples.

Results

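Prom1, Muc1 and Cd24 code for surface proteins of luminal epithelial cells, and their mRNA was measured in 65 rat mammary tumors. They were selected on earlier results of these arrays, in which Prom1 and Muc1 were lower in transplanted tumors than in the primary tumors of the same lines. Differences from the primary tumor are therefore given for all 3 genes as a description, with no test. They are 3 of the 10411 genes that the arrays could name and 3 of the 8499 that passed a filter on low values, so no member was lost. The tests used here are the trend from the first transplant to the last, the differences among lines, and the correlation of the genes over lines.

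Each of 11 lines, called series 10, 13, 17, 19, 25L, 25R, 32, 33, 34, 36 and 42, began as a mammary tumor that a carcinogen had induced in a rat. Tumor tissue was then passed from host to host within the strain, giving transplants 1 to 5 (T1 to T5). There was 1 array for each of 11 primary tumors and 54 transplanted tumors, and the T5 tumor of series 10 was not analysed here. The labels name neither the strain, the carcinogen, the age of the animals nor the invasiveness of single tumors, and they do not say whether series 25L and 25R came from the same animal. RNA came from frozen whole tumor tissue, so it includes cells of the host. With 1 primary tumor in each series, an error in that array moves every difference taken from it.

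Prominin 1 (Prom1, also known as CD133) is a cholesterol-binding protein of microvilli and other protrusions of the apical membrane, the face of an epithelial cell that lines the lumen. Mucin 1 (Muc1) is a transmembrane mucin whose long outer part carries many O-linked sugar chains, and whose short inner tail is bound and phosphorylated by kinases such as Egfr and Src. Cd24 is a small, heavily glycosylated protein held in the membrane by a lipid (GPI) anchor. In the mammary gland Prom1 and Muc1 mark luminal cells, and Cd24 is used in cell sorting to separate epithelial from stromal cells.

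Because Prom1 and Cd24 went together over the lines, and Muc1 and Cd24 within them, as described further on, the 250 bases before their annotated starts are shown for comparison (RefSeq, assembly GRCr8, plus strand). Capitals mark the letters CACCTG, an E-box of the kind bound by zinc finger repressors of the Snail and Zeb families. The windows lie at chr14:71202395-71202644 for Prom1, chr2:176933500-176933749 for Muc1 and chr20:48656227-48656476 for Cd24.
Prom1: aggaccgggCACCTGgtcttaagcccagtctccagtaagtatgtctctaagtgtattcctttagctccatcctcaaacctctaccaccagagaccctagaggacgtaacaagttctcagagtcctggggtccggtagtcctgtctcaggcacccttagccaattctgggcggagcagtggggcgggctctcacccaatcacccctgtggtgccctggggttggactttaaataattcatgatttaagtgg
Muc1: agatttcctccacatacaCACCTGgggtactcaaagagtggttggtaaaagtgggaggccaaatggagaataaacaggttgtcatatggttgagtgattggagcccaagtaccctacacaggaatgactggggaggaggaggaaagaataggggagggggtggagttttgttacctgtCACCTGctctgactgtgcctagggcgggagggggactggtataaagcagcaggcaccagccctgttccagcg
Cd24: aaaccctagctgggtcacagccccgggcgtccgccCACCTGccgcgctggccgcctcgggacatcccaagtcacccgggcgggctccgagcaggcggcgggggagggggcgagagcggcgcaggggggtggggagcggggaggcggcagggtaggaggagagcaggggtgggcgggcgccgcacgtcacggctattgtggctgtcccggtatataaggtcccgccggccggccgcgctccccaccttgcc
Searched on both strands, CACCTG was found 1 time in the Prom1 window, 241 bases before the start, and 1 time in the Cd24 window, 215 bases before it. The Muc1 window held it at 2 places, 232 and 72 bases before the start. Of 33469 rat promoter windows of this length, 15.9% held at least 1 match. A second annotated start of Prom1, at chr14:71211389-71211638 for its window, had none in that window. The GC box GGGCGG was found in all 3 windows shown (30.47% of all windows), and the GATA core AGATAA in none of them (10.3% of all). The ETS core GGAAG, which 63.29% of windows hold, was also in none of the 3. The Cd24 window was 75.6% G or C, against a median of 51.2% over all windows. A match is a run of letters and not a measured binding site, and its bearing on the levels of these genes was not tested. The RefSeq gene bounds of all 3 genes begin upstream of these windows, at position 71202303 of chromosome 14 for Prom1, 176933312 of chromosome 2 for Muc1 and 48655549 of chromosome 20 for Cd24, so other transcripts may start earlier.

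The arrays and the tissue label were checked first. Array medians before scaling ran from 96.1 to 176, and the lowest belonged to the T5 tumor of series 32 (the next lowest was 143). The 8 luminal epithelial markers (Krt8, Krt18, Krt19, Krt7, Epcam, Cdh1, Cldn4 and Cldn7) had a summed intensity of 359 to 24226 in primary tumors (median 13392), 341 to 20138 in T1 to T4 (median 12325) and 361 to 15838 in T5 (median 10269). These markers were at or near the floor in series 42. Their sum there was 341 to 386 on all 6 arrays, Krt18 was at the floor of measurement (an intensity of 39.8, or 5.31 on the log2 scale) on all 6, and 4 to 7 of the 8 markers were at the floor on each array, with array medians of 143 to 147. In series 34 the sum went from 21374 in the primary tumor to 361 in T5, with 5 or 6 markers at the floor from T3 on. In series 32 it went from 24226 to 810, with 5 at the floor in T5, and in series 36 from 13392 to 3904. In bulk tissue, fewer cells of a type and less RNA per cell cannot be told apart.

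The mean Prom1 level of the transplants was below that of the primary tumor in every series, and in 4 of them the drop came with the first passage. Levels are log2 probe set intensities throughout. The primary tumors ranged from 6.66 to 10.56 (median 9.80, n = 11), T1 from 6.30 to 10.01 (median 8.96), and T5 from 6.29 to 9.36 (median 8.48, n = 10). The groups overlap, since series 42 was already low as a primary tumor. The transplants averaged 1.22 ± 0.77 (SD, n = 11 series) log2 units below their own primary tumors, and all 11 series were lower. Few host-cell markers were called in the same comparison. S100a9, the only neutrophil gene tested, was higher by 1.19 ± 0.39 (SE, limma adjusted p = 0.0453, higher in 9 of 11 series). That call was lost without series 10, 13, 17, 25L, 25R, 32, 33 or 34. It was also lost with a covariate for RNA quality, with array weights and with series 25L and 25R averaged. The same held without rescaling, the filter on low values or the series block. None of 5 macrophage, 7 fibroblast, 5 endothelial or 3 T and B cell genes tested was called. Their median differences were 0.27, 0.51, 0.13 and 0.20 in that order. Of 4 skeletal muscle genes tested, 1 was called lower. The summed macrophage intensity had medians of 2486 in primary tumors, 3283 in T1 to T4 and 3473 in T5. The part of these cells in the Prom1 values was not tested. The difference of Prom1 from primary was -0.66 ± 0.96 (SD) at T1, -1.19 ± 0.85 at T2, -1.48 ± 0.87 at T3, -1.39 ± 0.75 at T4 and -1.47 ± 1.01 at T5. Most of the mean difference was thus in place by T2.

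Single lines show when Prom1 left its primary level. In series 25L it went from 10.29 in the primary tumor to 8.22 at T1, a 4.18-fold step, and was 8.24, 7.77, 8.96 and 9.36 in T2 to T5. Series 33 went from 10.17 to 8.29 at T1 (3.68-fold) and then stayed between 8.39 and 8.76. Series 25R went from 10.56 to 8.82 (3.36-fold) and then stayed between 8.85 and 9.32. In all 3 the first passage held the largest step, with Epcam, an adhesion protein of epithelial cells, at 10.92 or more on every array of these lines. At the same step the summed intensity of 8 fibroblast markers (Col1a1, Col1a2, Col3a1, Dcn, Lum, Pdgfra, Pdgfrb and Fbln1) went from 20978 to 3311 in series 25L, from 1878 to 5398 in series 25R and from 3706 to 19149 in series 33. Vim, the intermediate filament of mesenchymal cells, went from 9.74 to 11.70 in series 33. The luminal sum went from 7149 to 15145, from 13630 to 19433 and from 14353 to 12647 in these lines. Series 34 also had its largest Prom1 step at T1, from 9.52 to 8.09 (2.69-fold), followed by 7.01, 6.51, 6.69 and 6.71. Series 13 and 32 were first 2-fold below primary at T2, series 17 at T3 and series 36 at T4. Series 10 and 19 never were, and series 42 had only 6.66 in its primary tumor and 6.28 to 6.38 in its transplants.

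Muc1 stood on average at its primary level after the first passage and below it from T2 on. Primary tumors ranged from 5.89 to 8.92 (median 8.19, n = 11), T1 from 5.46 to 9.19 (median 8.14), and T5 from 5.44 to 8.08 (median 6.55, n = 10). The groups overlap over nearly their whole range. The transplants averaged 0.66 ± 0.91 (SD, n = 11 series) below primary, with 9 of 11 series lower. By generation the difference from primary was 0.04 ± 0.57 (SD) at T1, -0.43 ± 0.87 at T2, -0.82 ± 1.18 at T3, -1.02 ± 1.35 at T4 and -1.28 ± 1.00 at T5. No series was 2-fold below its primary tumor at T1, and 6 of 11 were at some later passage.

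Series 17 held the largest mean difference of Muc1, with 8.45 in the primary tumor and 7.54, 6.28, 5.77, 5.43 and 5.87 in T1 to T5. In that line Cd24 moved between 11.83 and 11.12 and Epcam between 10.57 and 11.24, but Krt18 went from 10.62 in the primary tumor to 8.73 at T4. The luminal marker sum of that line went from 14208 to 6021 at T3 and the fibroblast marker sum from 15542 to 25196. Series 34 kept Muc1 at 8.35, 8.35 and 8.02 up to T2 and had 5.43 at T3, a 6.01-fold step. Series 25R had a passing low, with 7.02 at T3 and 6.46 at T4 and then 7.89 at T5. Its skeletal muscle marker sum was 6559 at T3, against 970 to 1586 on its other arrays. At T4 its macrophage sum (7046) and fibroblast sum (27349) were the highest of the line and its luminal sum (10120) the lowest. The part of these shifts in the Muc1 values was not tested. Series 10 went the other way, from 7.33 in the primary tumor to 8.28, 8.80, 8.32 and 8.43. In that line the fibroblast marker sum went from 32913 in the primary tumor to 1998 at T1 and the luminal sum from 9540 to 18162, whose part in the Muc1 values was not tested. The lowest Muc1 values, near 5.43, lay close to the floor of 5.31, so differences down to them may be understated.

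Cd24 was never 2-fold below its primary level in 7 of 11 lines and was far lower in a few late tumors of the others. Primary tumors ranged from 7.14 to 11.87 (median 11.59, n = 11), T1 from 6.65 to 11.87 (median 11.37), and T5 from 7.16 to 11.73 (median 10.84, n = 10). The ranges nearly coincide, and series 42 held the lowest value in every generation. The transplants averaged 0.50 ± 0.87 (SD, n = 11 series) below primary, with 9 of 11 series lower. The mean difference was -0.13 ± 0.42 (SD) at T1, -0.09 ± 0.47 at T2, -0.61 ± 1.25 at T3, -0.73 ± 1.35 at T4 and -1.11 ± 1.54 at T5. No series was 2-fold below primary at T1 or T2, and 4 of 11 were at some later passage.

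Series 34 lost most of its Cd24 signal in a single passage. Its values were 11.18, 11.38 and 11.40 up to T2 and 7.63, 7.34 and 7.35 from T3 on, a 13.6-fold step. Series 32 had 11.59, 10.80 and 11.43 up to T2 and 9.36, 8.89 and 7.84 from T3 on, which ended 13.4-fold below its primary tumor. Series 36 stayed between 11.01 and 11.02 through T3, was 10.61 at T4 and 9.28 at T5. Series 13 passed the 2-fold mark only at T5, with 10.65 against 11.83. That T5 tumor had a summed T and B cell marker intensity of 2150, against 693 to 766 on the other arrays of its line, and an adipocyte marker sum of 2775, against 317 to 367. The T5 tumor of series 32 had a T and B cell sum of 4080, against 757 to 892. The other lines with T5 arrays, apart from series 42, ended between 11.02 and 11.73. Series 10 had 11.21 in the primary tumor and between 11.87 and 12.25 in the transplants, beside the shift in fibroblast and luminal sums given for Muc1.

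**Figure D1:**
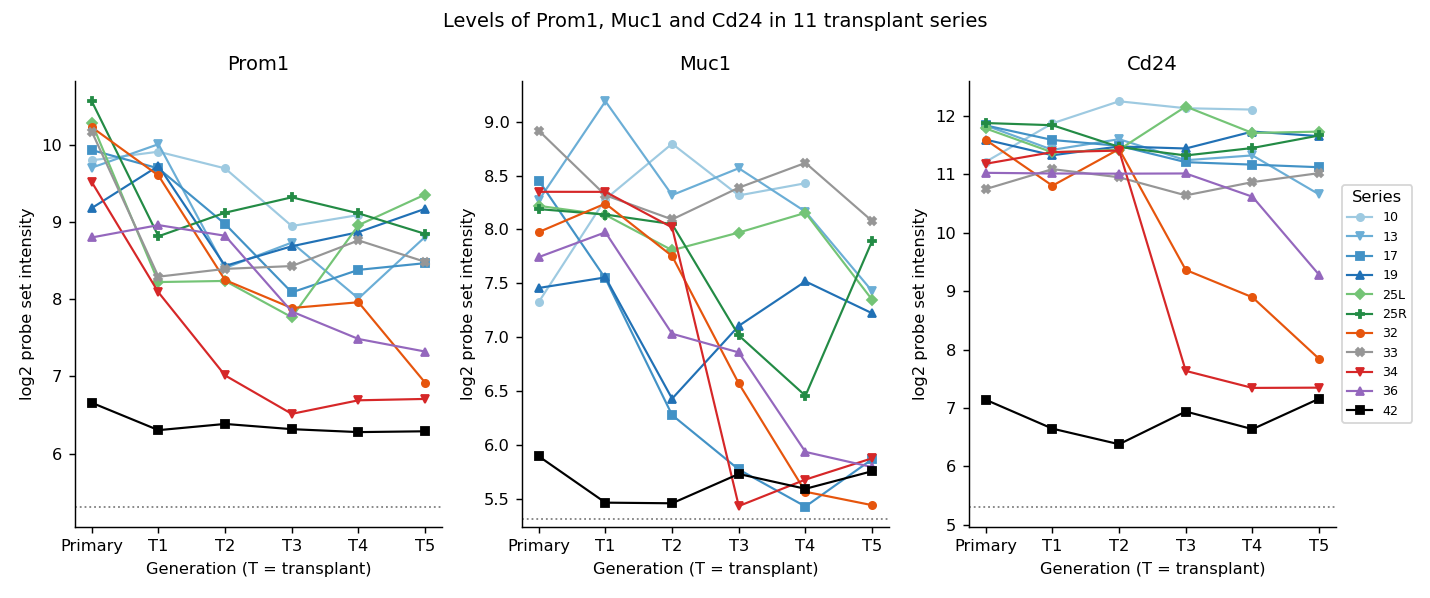
Log2 probe set intensity of Prom1, Muc1 and Cd24 (vertical axes) by generation (horizontal axes), with 1 line per series, 1 point per array and the measurement floor of 5.31 dotted. Prom1 drops at T1 in series 25L, 25R, 33 and 34, Cd24 drops at T3 in series 32 and 34, and series 42 is low throughout.

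The order in which the genes passed the 2-fold mark differed between them. All 4 series in which Cd24 was 2-fold below primary (13, 32, 34 and 36) had Prom1 below that mark at an earlier passage. Prom1 came before Muc1 in 3 of the 5 series where both passed it, in the same passage in 1 and after it in 1. Muc1 came before Cd24 in 1 of 3 such series and in the same passage in 2. In 4 series, 17, 25L, 25R and 33, Prom1 passed the mark and Cd24 never did. In series 13, Prom1 was back within the mark at T5 (1.86-fold below primary), when Cd24 passed it. These orders were read from single arrays and were not tested. They also rest on the contrast with the primary tumor on which Prom1 and Muc1 were selected, which favors them over Cd24.

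Luminal and basal epithelial markers both moved with Cd24 in series 32, 34 and 36, but not in series 13, where Epcam was 11.25 in the primary tumor and 11.31 at T5. In series 34, Epcam went from 11.62 at T2 to 6.52 at T3, Krt8 from 11.43 to 5.42 and Krt18 from 10.78 to the floor, at the passage in which Cd24 and Muc1 had their largest steps. Prom1 had by then already gone from 9.52 to 7.01, while Epcam had gone from 12.01 to 11.62. In series 32, Epcam was 11.56 at T2, 9.17 at T3, 7.70 at T4 and 5.58 at T5. The summed intensity of 8 basal and myoepithelial markers went from 8587 in the primary tumor to 1174 at T5 in series 34, from 8983 to 1686 at T3 in series 32 and from 6697 to 2520 at T5 in series 36. The fibroblast marker sum went from 1292 in the primary tumor to 56315 at T5 in series 32. It went from 8445 to 17791 in series 34 and from 12711 to 23008 in series 36. The part of these other cell types in the members' values was not tested.

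Set against the mean log2 level of the 8 luminal markers, the 3 genes differed. The luminal mean in the transplants was 0.57 ± 1.42 (SD, n = 11 series) below primary and lower in 7 of 11 series. Prom1 was further below its primary level than the luminal mean in 9 of 11 series. Its mean gap to them over all 11 series was -0.65 ± 1.10 (SD), smaller than its spread. Muc1 was further below in 8 of 11 series and Cd24 in 4. The mean gap over all 11 series was -0.09 ± 1.08 (SD) for Muc1 and 0.07 ± 0.73 for Cd24. Series 42 is in all of these counts and gaps, with differences of -0.34 for Prom1, -0.29 for Muc1 and -0.39 for Cd24. There 4 to 7 of the 8 luminal markers were at the floor on each array. The luminal mean of that line could thus hardly fall, so series 42 cannot decide this comparison. Prom1 and Muc1 were also selected on this contrast with the primary tumor, so their counts are a description only.

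**Figure D2:**
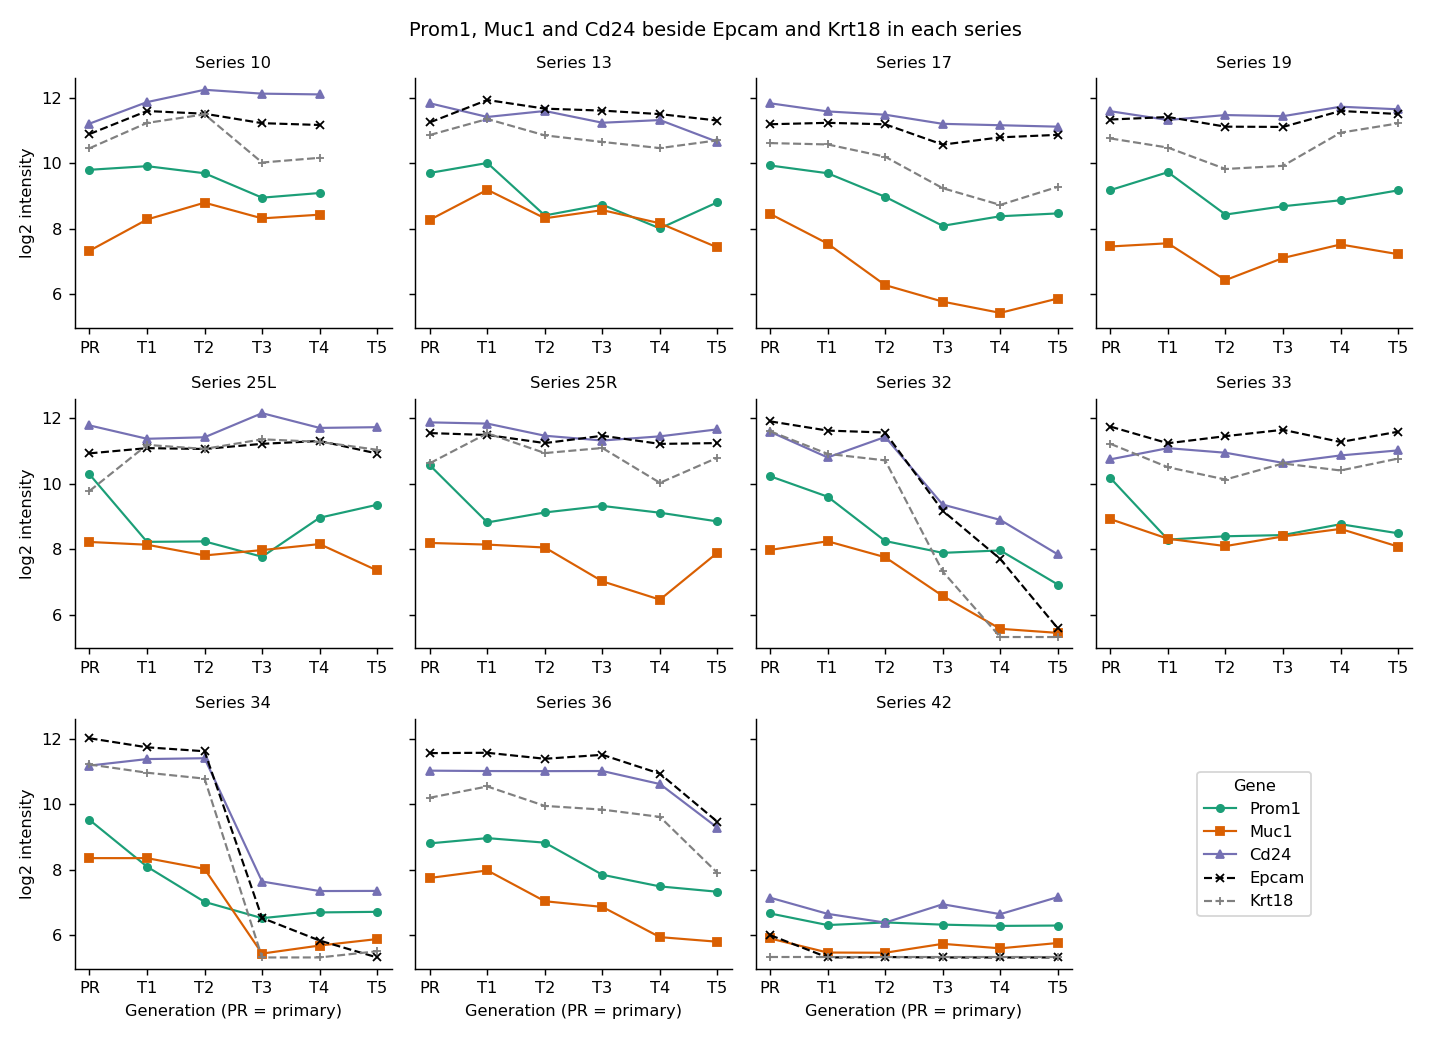
Log2 intensity (vertical axes) of Prom1, Muc1, Cd24 and the luminal genes Epcam and Krt18 by generation (horizontal axes), with 1 panel per series and 1 point per array. Epcam and Cd24 drop together in series 32, 34 and 36, while in series 25L, 25R and 33 Prom1 drops at T1 with Epcam at 10.92 or more.

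Within the transplants, the mean slope from T1 to T5 was downward for all 3 genes, but not in every series. This trend is another contrast than the one the genes were selected on, but it uses the same transplant arrays and was chosen with earlier results known, so its p-values are not independent evidence. The slope was -0.17 ± 0.05 (SE) log2 units per transplant for Prom1 (limma adjusted p = 0.0486, down in 8 of 11 series), -0.29 ± 0.06 for Muc1 (adjusted p = 0.0132, 8 of 11) and -0.24 ± 0.07 for Cd24 (adjusted p = 0.0495, 7 of 11). Over the 4 passages from T1 to T5 these slopes amount to 1.60-fold, 2.26-fold and 1.94-fold. The median of the single-series slopes was -0.28 for Prom1, -0.21 for Muc1 and only -0.04 for Cd24. Prom1 did not fall in series 25L, 25R and 33 (slopes of 0.30, 0.005 and 0.08). Among all genes tested, limma called 2.79% down and 2.04% up over the transplants, and the median slope was 0.0042. An exact sign-flip test on 1 slope per series (two-sided, smallest possible p = 0.000977) gave p = 0.0498 for Prom1, 0.0146 for Muc1 and 0.131 for Cd24.

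The calls depend on single lines, and so does the size of the Cd24 slope, while the slopes of Prom1 and Muc1 moved less. Without series 32, 34 or 36 in turn, the slope was -0.13, -0.15 and -0.14 for Prom1, -0.24, -0.25 and -0.27 for Muc1, and -0.17, -0.14 and -0.22 for Cd24. In the same fits the adjusted p by limma was 0.235, 0.196 and 0.174 for Prom1, 0.0915, 0.106 and 0.0742 for Muc1, and 0.237, 0.247 and 0.137 for Cd24. Leaving out any of these 3 series took the number of genes called over all genes from 410 to between 3 and 7. The Prom1 call was also lost without series 10 (adjusted p = 0.0707), 13 (0.0879) or 17 (0.103), and the Cd24 call without series 10 (0.0526), 13 (0.0766), 17 (0.0677) or 25R (0.0589). Leaving out only the T5 array of series 32 gave 0.127 for both. With arrays weighted by their quality, the Cd24 slope was -0.10. With no block for series, the adjusted p was 0.464 for Prom1, 0.421 for Muc1 and 0.516 for Cd24. The direction was down in every one of these fits.

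The slopes differed among the lines. The slopes of single series ran from -0.57 to 0.30 for Prom1, from -0.78 to 0.07 for Muc1 and from -1.21 to 0.13 for Cd24. The difference passed limma's F test for Prom1 (adjusted p = 0.0110), Muc1 (adjusted p = 0.00772) and Cd24 (adjusted p = 8.07e-05), where 24.3% of all genes tested passed. The lowest slopes of Muc1 were in series 32 (-0.78), 34 (-0.73) and 36 (-0.55), and those of Cd24 in series 34 (-1.21), 32 (-0.85) and 36 (-0.39). The lowest slopes of Prom1 were in series 32 (-0.57) and 36 (-0.46), and the highest was in series 25L (0.30), where T1 was already low. Without series 25L the Prom1 slopes no longer differed at the threshold (limma adjusted p = 0.0772).

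**Figure D3:**
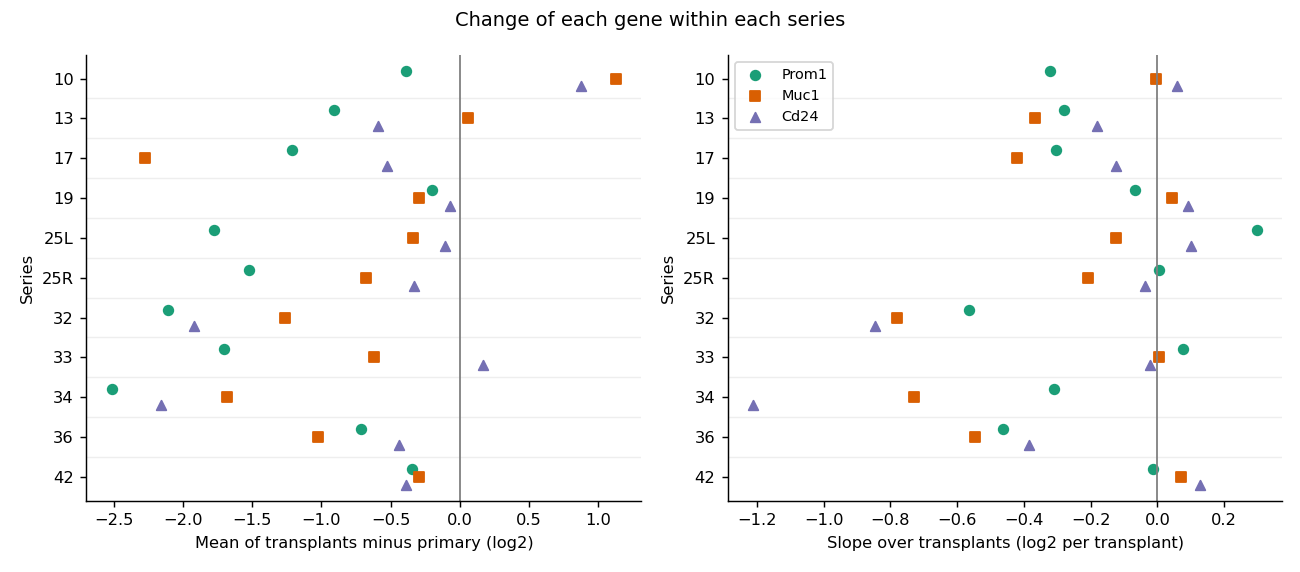
Difference between the mean of the transplants and the primary tumor (left, log2) and slope over T1 to T5 (right, log2 per transplant) for each series, with 1 symbol per gene. Prom1 lies below 0 in all 11 series on the left, and the slopes of Cd24 run from -1.21 in series 34 to 0.13 in series 42.

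Levels also differed among lines, as they did for most genes on the array. Limma's F test gave an adjusted p of 1.63e-11 for Prom1, 3.55e-08 for Muc1 and 9.27e-14 for Cd24, but 83.5% of all genes tested passed, so these calls say nothing particular about the 3 genes. Series accounted for 57.9% of the variance of Prom1, 53.0% of that of Muc1 and 75.9% of that of Cd24, against a median of 42.9% over all genes. Generation accounted for 23.6%, 18.9% and 6.11%, against a median of 6.19%. Generation thus took a larger share for Prom1 and Muc1 than for Cd24, although the generation share includes the contrast with the primary tumor that the genes were selected on.

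The order of the lines was similar for Prom1 and Cd24 and differed more for Muc1, with series 42 last for all 3. For Prom1, series 10 had the highest mean (9.49 ± 0.44, SD, n = 5 arrays) and series 42 the lowest (6.37 ± 0.15, n = 6), with series 34 next lowest (7.42 ± 1.17). For Muc1, series 33 was highest (8.40 ± 0.32), and series 17 (6.56 ± 1.18) and 42 (5.65 ± 0.17) were lowest. For Cd24, series 10 was highest (11.91 ± 0.41), and series 34 (9.38 ± 2.13) and 42 (6.82 ± 0.31) were lowest. Neighbours in each order overlapped in range, apart from series 34 and 42 for Cd24. Series 42 was the lowest line for all 3 genes, at 6.28 to 6.66 for Prom1, 5.46 to 5.89 for Muc1 and 6.38 to 7.16 for Cd24. Over all arrays the highest value exceeded the lowest 19.5-fold for Prom1, 13.6-fold for Muc1 and 58.3-fold for Cd24.

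Of the 3 pairs, Prom1 and Cd24 went together most closely over the 11 series means. Pearson's r was 0.96 (permutation adjusted p = 9.0e-05 over 3 pairs) and Spearman's rho 0.89 (permutation adjusted p = 0.00165). Without series 42 and 34, the lines farthest from the median of Prom1, r was 0.81 (permutation adjusted p = 0.0232). Prom1 and Muc1 had r = 0.74 (permutation adjusted p = 0.00764) and rho = 0.55 (permutation adjusted p = 0.0994), and without the same lines r was 0.45 (permutation p = 0.228) and rho 0.30, so the relation rests on them. Muc1 and Cd24 had r = 0.74 (permutation adjusted p = 0.00764) and rho = 0.53 (permutation adjusted p = 0.0994), and without series 42 and 33 r was 0.57 (permutation adjusted p = 0.170), so its call was lost, and rho stayed at 0.53. Once each line's mean was removed, the 65 arrays gave r = 0.78 for Muc1 and Cd24, 0.67 for Prom1 and Muc1 and 0.53 for Prom1 and Cd24, as a description of arrays that share lines and passages. Many other genes were closer to Prom1 over the 65 arrays. By Spearman's rho, Cd24 stood at rank 115 for Prom1 and Muc1 at rank 277.

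**Figure D4:**
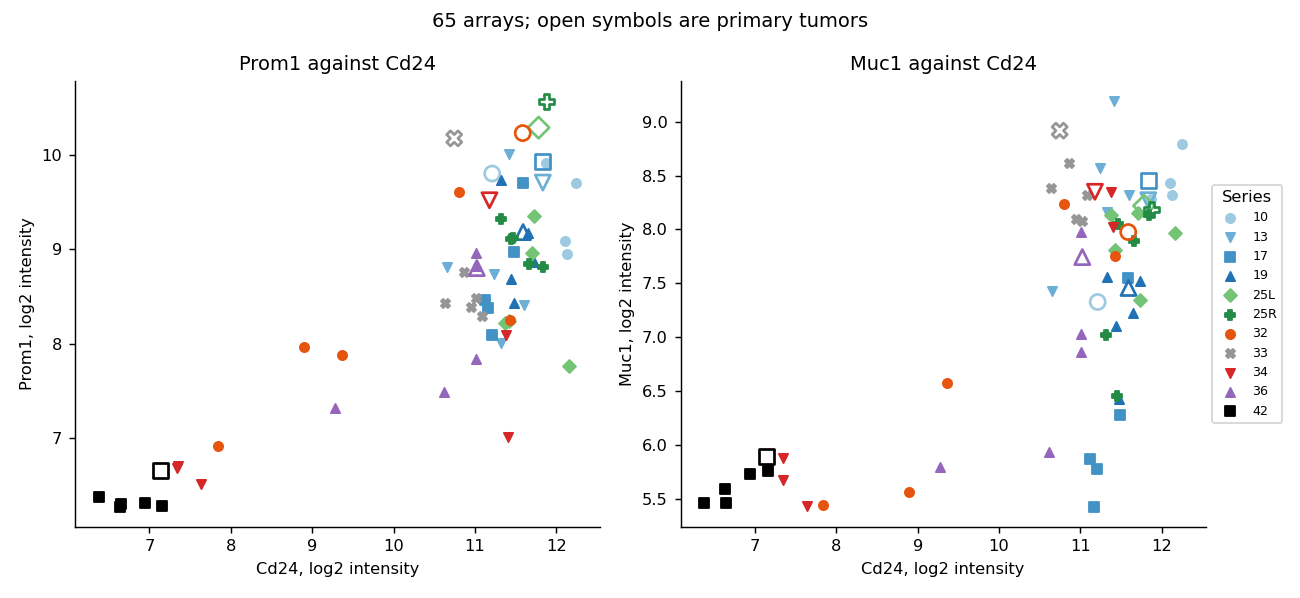
Log2 intensity of Prom1 (left) and Muc1 (right) against that of Cd24 on 65 arrays, coloured by series, with open symbols for primary tumors. Series 42 and the late tumors of series 32 and 34 sit at the low end for both axes, and series 17 has tumors with low Muc1 (5.43 to 6.28) at a Cd24 level of 11.12 to 11.48.

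The genes whose pattern over the 65 arrays was most like that of each member were named by Spearman's rho, over arrays that share lines and depth of passage. For Prom1 they were Zbtb43 (0.83), Bcr (0.82), the tight junction gene Cldn3 (0.81), the prolactin receptor gene Prlr (0.80) and the adaptor gene Grb7 (0.79). Its lowest were Gnai1 (-0.76), Ehd1 (-0.73) and Clta (-0.73). For Muc1 they were the small GTPase genes Rab25 (0.85) and Rab4a (0.85), the myosin gene Myo5b (0.85), the serine protease gene Prss8 (0.84) and Klhl36 (0.84). Its lowest were Nol3 (-0.83), Adam19 (-0.81) and Fez2 (-0.80). For Cd24 they were Usp46 (0.90), Ndufv3 (0.85), Ncoa1 (0.84), Map3k1 (0.82) and Pcmtd2 (0.82), and the lowest were Synj1 (-0.85), Kif2a (-0.84) and Lrwd1 (-0.84). With each line's mean removed, the Cd24 list was different. Fxyd3, the membrane protease gene St14 and the cadherin gene Cdh1 then each had r = 0.95 with Cd24, and Epcam stood at rank 5, also at 0.95. For Prom1, Zbtb43 (0.84) and Cldn3 (0.83) stayed first, followed by the growth factor receptor gene Fgfr3 (0.82), and for Muc1 the first were Kcnk1 (0.89), Cmtm8 (0.88) and Prlr (0.87).

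Other genes of the apical membrane and of the members' pathways were counted in 10 lists, which held 100 tested genes beside the 3. In transplants against primary, 7 of the 100 were lower and 6 higher by limma (median -0.05), where 5.06% of all genes tested were lower and 4.44% higher (median 0.011). At T5 against primary, 14 were lower and 6 higher, against 6.72% and 7.37% of all genes. Over the transplants, 12 fell and 3 rose, against 2.79% and 2.04% of all genes. Without rescaling of the arrays, the share of higher calls among all genes moved from 46.7% to 28.7% for transplants against primary and from 42.2% to 14.4% for the slope (31.3% after quantile normalization). The direction of each gene named here stayed the same under every alternative, but each of their calls was lost without the series block. Of the 13 calls against primary, those of Cldn3, Stx3, Src and Cd44 held when arrays were weighted by quality. A covariate for RNA quality, the signal of the Gapdh 3' over 5' probe sets, ended the calls of Ceacam1, Anpep, St3gal1, St3gal4, Egfr, Stat5a and Itgb1.

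Of 12 other genes in the apical membrane list, which includes the tight junction gene Cldn3, 3 were lower in transplants and 1 higher (median -0.20). Cldn3 was lower by 1.75 ± 0.31 (SE) log2 units (limma adjusted p = 0.000185, lower in 10 of 11 series), and Tspan8, a tetraspanin, by 1.11 ± 0.29 (adjusted p = 0.00893, 9 of 11). Ceacam1, an adhesion glycoprotein of epithelial apical faces, named as the remaining gene called lower, had -0.70 ± 0.19 (adjusted p = 0.0112, 10 of 11). Anpep, an aminopeptidase of brush borders and also of stromal cells, was higher by 0.79 ± 0.25 (adjusted p = 0.0331, higher in 8 of 11). The Ceacam1 call was lost without series 17, and that of Anpep without series 13, 17, 25R, 32, 33 or 34 or with series 25L and 25R averaged. Over T1 to T5, 4 of the 12 fell and none rose, with slopes of -0.41 ± 0.09 for Cldn3, -0.30 ± 0.09 for the transmembrane mucin Muc4, -0.22 ± 0.06 for the sialomucin Podxl and -0.20 ± 0.05 for Ceacam1. Each of these 4 slope calls was lost without series 32, 34 or 36, as for Prom1, Muc1 and Cd24, and those of Muc4, Podxl and Ceacam1 also without series 13 (Muc4 also without 19).

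Of 14 genes of mucin-type O-glycosylation, 3 were higher in transplants and none lower (median 0.14), and none had a called slope. Gcnt3 (-0.32), Fut2 (-0.33) and Fut1 (-0.23), named after their values were seen, had the lowest differences and did not pass. St3gal1, a sialyltransferase that caps the core of the chain, was higher by 0.65 ± 0.19 (SE; limma adjusted p = 0.0255), St3gal4, another sialyltransferase, by 0.39 ± 0.13 (adjusted p = 0.0379), and C1galt1, which makes that core, by 0.32 ± 0.09 (adjusted p = 0.0211). Each was lower in only 2 of 11 series. The St3gal1 call was lost without series 13, 25R or 33, that of C1galt1 without series 10, 17 or 42 or without rescaling, and that of St3gal4 without any of 7 series (13, 19, 25L, 32, 33, 34 and 42) or without rescaling.

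Of 14 genes for partners of Muc1, which bind its tail or its outer part or cleave it, Egfr (-0.51 ± 0.16 SE, limma adjusted p = 0.0303) and the kinase gene Src (-0.40 ± 0.10, adjusted p = 0.00965) were lower in transplants, each in 10 of 11 series, and none was higher (median -0.06). Src also fell over the transplants, by 0.13 ± 0.03 per passage, a call lost without series 32, 34 or 36. The Egfr call was lost without series 10, 13, 17, 25R or 42. Of 4 tested genes of GPI anchoring and Cd24 signalling (Pigk, Pgap2, Fyn and Lyn), none was called in any of these comparisons (median 0.06).

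Of 12 trafficking genes, only Stx3, an apical syntaxin, was lower in transplants (-0.49 ± 0.12 SE, limma adjusted p = 0.00579, 10 of 11 series). Over T1 to T5, Rab25, a GTPase of apical recycling, fell by 0.30 ± 0.08 per passage and Rab27b rose by 0.07 ± 0.02. Of 12 polarity genes none was called against primary, and Patj (-0.12 ± 0.03) and Prkcz (-0.12 ± 0.03) fell over the transplants. Of 8 cytoskeletal and scaffold genes and 8 genes of the milk fat globule membrane, none was called against primary, and Plekhb1 (-0.19 ± 0.05) and Adgrg1 (-0.21 ± 0.06), an adhesion receptor, fell over the transplants. All of these slope calls were lost without series 32, 34 or 36. That of Prkcz was also lost without 13 or 25R, and that of Rab27b without 13, 17 or 25L. The Rab27b call was lost as well after quantile normalization, without rescaling and without the filter on low values.

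Luminal regulators and progenitor markers were mixed. Of 8 luminal transcription factors, Stat5a, which acts downstream of the prolactin receptor, was lower in transplants (-0.44 ± 0.12 SE, limma adjusted p = 0.0117, 9 of 11 series) and fell by 0.11 ± 0.03 per passage. The first of these calls was lost without series 17 or 25R, and the slope call without 13, 19, 25R, 32, 34 or 36. Of 8 progenitor and stem cell surface markers, the hyaluronan receptor gene Cd44 was higher by 0.75 ± 0.17 (limma adjusted p = 0.00399, higher in 9 of 11 series). Cd44 also rose by 0.31 ± 0.05 per passage (limma adjusted p = 0.000739). Both calls held with each series left out in turn, but the slope call was lost with array weights. The integrin gene Itgb1 was higher by 0.34 ± 0.10 and rose by 0.11 ± 0.03, and Cd14 fell by 0.20 ± 0.06 per passage. Without series 32 neither Itgb1 call held. Its first call was also lost without 13, 17, 19, 25L or 25R and its slope call without 17, 25L, 34 or 36. The Itgb1 slope call was lost as well after quantile normalization, without rescaling and without the filter on low values. The Cd14 call was lost without series 13, 32, 34 or 36. Of the 8 luminal markers named above, none was called against primary (median -0.66), and 5 (Krt18, Krt19, Epcam, Cdh1 and Cldn7) fell over the transplants, and of 7 tested basal markers 4 fell (Krt5, Acta2, Mylk and Tp63). Without series 32, 34 or 36 limma called none of either list, and without the T5 array of series 32 it called 0 luminal and 1 basal marker.

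**Figure D5:**
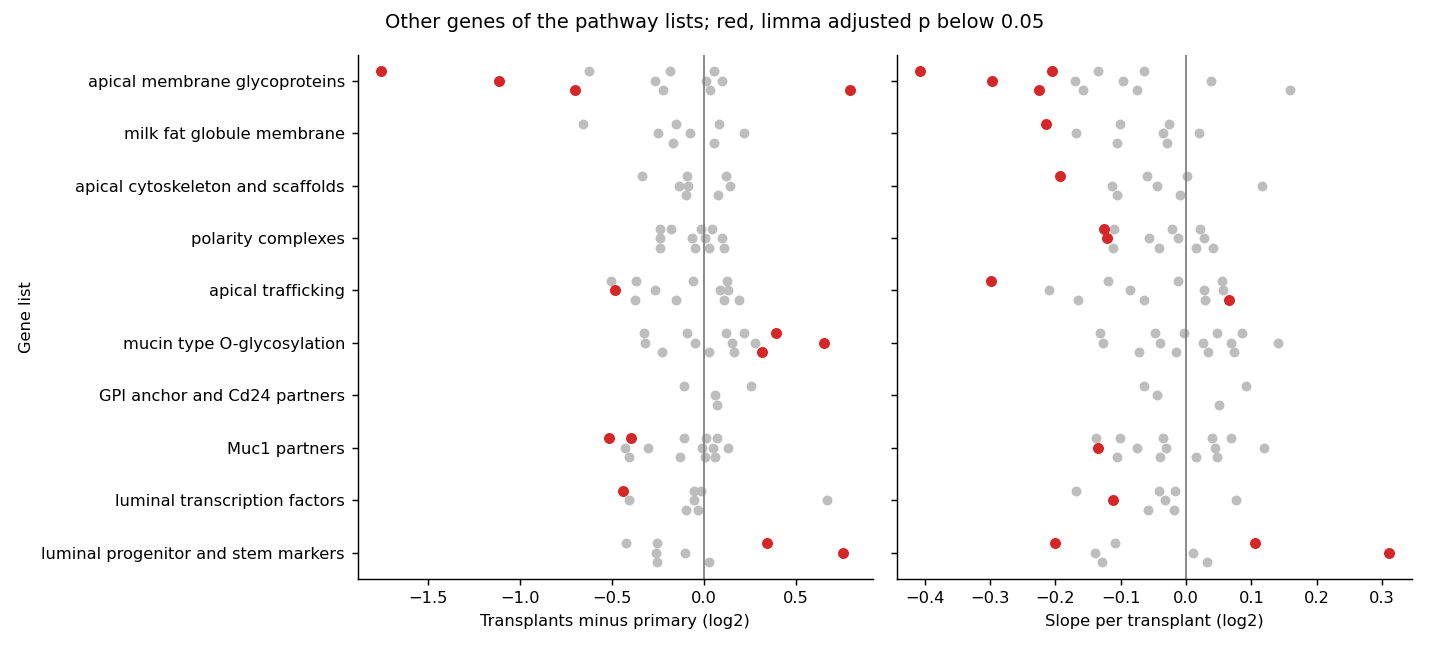
Difference between transplants and primary (left, log2) and slope per transplant (right, log2) for the tested genes of the 10 lists, with 1 point per gene and red points for limma adjusted p below 0.05. The apical membrane list holds the lowest red points on both sides (the tight junction gene Cldn3, -1.75 and -0.41), and 3 O-glycosylation genes are red above 0 on the left.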

How the data were processed

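The values analysed are probe set intensities that the authors deposited for 65 Affymetrix arrays, on a linear scale from 1 to 12011. Per the labels, 6 µg of total RNA from frozen tumor was labelled for each array. The sources used here do not state how probes were summarised or normalized. Arrays were scaled to a common median of 162 over 15866 probe sets (57 controls were dropped), floored at the 10th percentile of all values (39.8) and put on the log2 scale. Probe sets with a mean below 6.35, the lowest 25%, were not tested. The platform annotation gave 12783 probe sets 1 gene symbol, 312 several and 2771 none, and names were updated through RefSeq (GRCr8, 12748 matched). Each gene was read from its brightest probe set. Prom1, Muc1 and Cd24 have 1 each, never at the floor, and that of Cd24 is of a type shared by several transcripts of a gene.

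Tests used limma 3.58.1 in R 4.3.3 (lmFit and eBayes) over all 65 arrays, with generation and series as factors, Benjamini-Hochberg adjustment over 8499 genes and a two-sided threshold of 0.05. Differences in slope used the 54 transplant arrays. The series number pairs the samples, because the design text describes lines passed on from a first tumor, and series therefore entered as a block. Correlation was highest with an array of the same series for 50 of 65 arrays (mean r = 0.38 within and -0.04 between series). Tumors of a line are successive passages and not independent of each other, which the block removes only as a shared mean. The limma p-values of differences and slopes measure the spread between single tumors and do not take the line as the unit. Slopes differed among lines, so the number of lines limits the precision. The sign-flip test takes the line as the unit. Correlations over series used 100000 permutations. The scripts were tested on simulated data.

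The members, the gene lists (assembled by hand) and the tests were chosen with earlier results of these data known. Named genes were, from each list, up to 3 called genes with the largest difference and up to 3 with the largest slope, and for each member the 5 highest and 3 lowest Spearman correlations. Alternatives were quantile normalization, no rescaling, other floors and filters, no series block, array weights, a covariate for the 3' to 5' signal ratio of Gapdh (medians 0.048 in primary tumors and 0.11 to 0.16 in transplants, log2), series 25L and 25R averaged, each series left out, and, chosen after seeing the data, the T5 array of series 32 left out.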

Additional observations from a re-analysis of the deposited data

Results flagged for a closer look

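The slope over transplants 1 to 5 differed among the 11 series for each of the 3 genes by limma's F test. The adjusted p was 0.0110 for Prom1, 0.00772 for Muc1 and 8.07e-05 for Cd24. The single slopes behind these tests ran from -0.57 to 0.30, from -0.78 to 0.07 and from -1.21 to 0.13 log2 units per transplant. No T5 value of the 3 genes stood apart from the other 9 by Dixon's test.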

How the results depend on the processing

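No result changed direction. The slopes of Prom1, Muc1 and Cd24 lost their calls without the series block (-0.19, -0.31 and -0.26, no replicate block) and with array weights (-0.13, -0.20 and -0.10). Prom1 and Cd24 also lost them without a filter on low values (-0.17 and -0.24) and without the T5 array of series 32 (-0.14 and -0.20), and Cd24 with 1 slope per series (-0.22). With each series left out in turn, the slopes ran from -0.22 to -0.13, from -0.33 to -0.24 and from -0.28 to -0.14. The adjusted p of differences in slope ran from 0.00332 to 0.0772 for Prom1. Over series means, r for Prom1 and Muc1 was 0.45 without the farthest lines and 0.49 to 0.84 with 1 left out, and for Muc1 and Cd24 0.57, and 0.47 to 0.84. Genes called for the slope numbered 410, 265 without a filter, 0 without the block (961 at an unadjusted p under 0.05), 4 with array weights, 72 without the T5 array of series 32 and 3 to 813 with 1 series left out. For transplants against primary, 807 became 85, 331 with weights, 407 with the Gapdh ratio and 488 to 823. For T5, 1197 became 37, 307 with weights and 768 to 1273. For differences in slope, 2067 became 453 with weights, 1300 with series 25L and 25R averaged and 846 to 2298. A filter at the median left Muc1 untested. Reading each other probe set was not run, since each member has 1. Signal over background limits Muc1, whose low values lie near the floor.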
